A study of Mus musculus with 24 samples.

Results

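The genes described here govern how macrophages take up, carry and store lipid: the scavenger receptor genes Cd36, Msr1, Scarb1, Marco and Olr1, the lipase gene Lpl, the fatty acid carrier gene Fabp4 and the lipid droplet gene Plin2. They are 8 of the 21883 protein-coding genes in the RefSeq table used. A peak was assigned to one of them where that gene's body was the nearest to the peak's summit, at most 50 kb away. This gave 1235 of 1274891 peaks and 104 of 102580 merged regions, of which 86 were found in at least 2 libraries and are described below. Each of these regions is named by its gene and a number that counts along the chromosome.

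Chromatin accessibility was measured by ATAC-seq, in which the transposase Tn5 inserts adapters into open chromatin, in bone marrow-derived macrophages, that is, cells grown in culture from marrow; the donors were male C57Bl/6 mice. The sources used here do not give their age or blood glucose. The 24 libraries form 4 groups of 6: diabetic stimulated, diabetic unstimulated, control stimulated and control unstimulated. Streptozotocin, which destroys the insulin-producing beta cells, had been used to make the mice diabetic, so the model is one of insulin deficiency. Control mice were labelled as not diabetic. Stimulated cells received interferon gamma (IFNγ) at 10 ng/mL together with lipopolysaccharide (LPS) at 100 ng/mL, whereas unstimulated cells were lysed at baseline. The duration of stimulation is uncertain, since the treatment protocol states 6 h for cells given IL-1β, which the other labels do not mention. Material from each mouse sample was divided between both states, and the labels do not say whether a replicate number marks the same mouse. The p-values below treat the libraries as independent. In such bulk libraries, fewer cells of a type and less open chromatin per cell cannot be told apart.

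Scavenger receptors bind modified lipoproteins, fatty acids, bacteria and dead cells. Unlike the LDL receptor they are not shut off when cholesterol accumulates in the cell, and macrophages that keep taking up lipid through them become the foam cells of atherosclerotic plaques. The nuclear receptor PPARγ, which fatty acids activate, is a known inducer of Cd36, Lpl, Fabp4 and Plin2. Activation with LPS and IFNγ drives the inflammatory state of macrophages, in which several of these genes are known to be regulated.

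Promoter sequences of 4 of the genes are in the RefSeq table of GRCm38.p6, and these are shown because the peaks there behaved differently. All are on the minus strand, and each line gives the 250 bases before the annotated start, 5′ to 3′, with short motif matches in capitals. The stretches are chr5:17835897-17836146 for Cd36, chr1:120505025-120505274 for Marco, chr6:129507166-129507415 for Olr1 and chr4:86670060-86670309 for Plin2.
Cd36: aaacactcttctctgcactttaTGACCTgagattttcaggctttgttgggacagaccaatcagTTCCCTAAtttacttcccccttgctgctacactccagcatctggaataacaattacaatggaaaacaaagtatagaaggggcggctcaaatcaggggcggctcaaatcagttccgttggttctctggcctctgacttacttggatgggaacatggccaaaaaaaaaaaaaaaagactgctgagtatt
Marco: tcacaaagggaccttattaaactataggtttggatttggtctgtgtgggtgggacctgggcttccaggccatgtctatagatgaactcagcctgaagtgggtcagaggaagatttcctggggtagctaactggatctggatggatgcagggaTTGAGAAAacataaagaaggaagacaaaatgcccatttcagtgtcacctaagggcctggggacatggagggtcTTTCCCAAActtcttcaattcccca
Olr1: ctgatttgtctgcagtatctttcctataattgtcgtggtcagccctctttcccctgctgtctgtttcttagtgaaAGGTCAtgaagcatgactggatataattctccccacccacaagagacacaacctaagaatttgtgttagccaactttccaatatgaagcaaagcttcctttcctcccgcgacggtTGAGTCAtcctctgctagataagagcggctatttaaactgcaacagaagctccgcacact
Plin2: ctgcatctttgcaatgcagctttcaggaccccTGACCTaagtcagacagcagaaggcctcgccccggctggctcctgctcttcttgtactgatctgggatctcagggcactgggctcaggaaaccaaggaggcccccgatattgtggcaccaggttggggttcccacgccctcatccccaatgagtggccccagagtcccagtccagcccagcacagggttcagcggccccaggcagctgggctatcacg
A region lost after stimulation (Cd36 region 5) covered all 250 bases at Cd36. A lost region (Marco region 7) reached 40 bases into the Marco stretch. A region found in 12 stimulated and 11 unstimulated libraries (Olr1 region 5) covered all 250 bases at Olr1. A region found in all 24 libraries (Plin2 region 4) covered 202 bases at Plin2.

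The motifs were searched on both strands. The capitals mark the nuclear receptor hexamer (AGGTCA, or TGACCT on the other strand) at Cd36, Olr1 and Plin2, which lies 228, 175 and 218 bases before the start. They also mark a C/EBP motif (TTNCNNAA) at Cd36 and 3 at Marco, of which 2 overlap each other, and an AP-1 motif (TGANTCA) at Olr1, 60 bases before the start. The hexamer is found in 14% of 32851 promoters of the same length, the C/EBP motif in 36.8% and the AP-1 motif in 6.75%. No match was found in the 4 stretches for PU.1 (AGGAAGT), NF-κB (GGANTTCC), interferon regulatory factors (GAAANNGAA), the E-box (CACGTG) or the TATA box (TATAAA), which 7.69%, 4%, 7.13%, 6.02% and 12.4% of promoters hold. A match is a run of letters and does not show that a factor binds there.

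The deposited lists held 41385 to 61861 peaks per library. Their number averaged 53703 ± 4511 in diabetic stimulated, 55522 ± 4925 in diabetic unstimulated, 47268 ± 4535 in control stimulated and 55990 ± 3486 in control unstimulated libraries (SD, n = 6 each). Stimulated lists, above all the control ones, were thus shorter. The share of merged regions that a pair of libraries had in common was 54.2% to 74.0%, so no library repeated another. Macrophage markers had peaks for 10 of 10 genes, 9 of them in every library, and 36 to 62 peaks per library in all. Their summed peak number was 38 to 55 in diabetic stimulated, 50 to 62 in diabetic unstimulated, 36 to 53 in control stimulated and 52 to 59 in control unstimulated libraries. Of 8 adipocyte markers, 7 had a peak in some library and Cidec was at 0 throughout, with 13 to 22 peaks per library in all. In ranges over all libraries, 8 neutrophil markers gave 3 to 9 peaks (Ly6g and Elane at 0), 7 T and NK cell markers 2 to 9 (Cd3g, Cd8a and Ncr1 at 0) and 5 B cell markers 0 to 5 (Cd79a and Cd79b at 0). Likewise, 7 erythroid and megakaryocytic markers gave 5 to 9 peaks (Hba-a1, Hbb-bs and Gp9 at 0), 7 endothelial and stromal markers 18 to 33 and 5 dendritic cell markers 12 to 22. Markers with a peak in every library were not confined to macrophages. They numbered 4 of 8 for adipocytes, 1 of 8 for neutrophils, 2 of 7 for T and NK cells and 0 of 5 for B cells. For the erythroid and megakaryocytic, endothelial and stromal, and dendritic lists they were 4 of 7, 4 of 7 and 5 of 5. Macrophage marker peaks, like the lists, were fewer after stimulation on the whole, and their part in the results below was not tested.

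Of the 86 regions, 41 lay within a gene and 45 outside it. In all 24 libraries, 20 were found: 6 at Msr1, 5 at Cd36, 4 at Scarb1, 2 at Plin2, and 1 each at Marco, Olr1 and Lpl. Fabp4 had none. The deposited fold enrichment, the authors' value at each peak's summit, had medians of 6.38 to 15 at these 20 regions, and the highest belonged to Scarb1 region 16, which lies 17346 bp from the gene. The always-found regions had a median width of 638 bp, against 352 bp for those that varied enough to be tested. A region spans all peaks joined in it, so one found in more libraries is wider in part by construction.

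**Figure D1:**
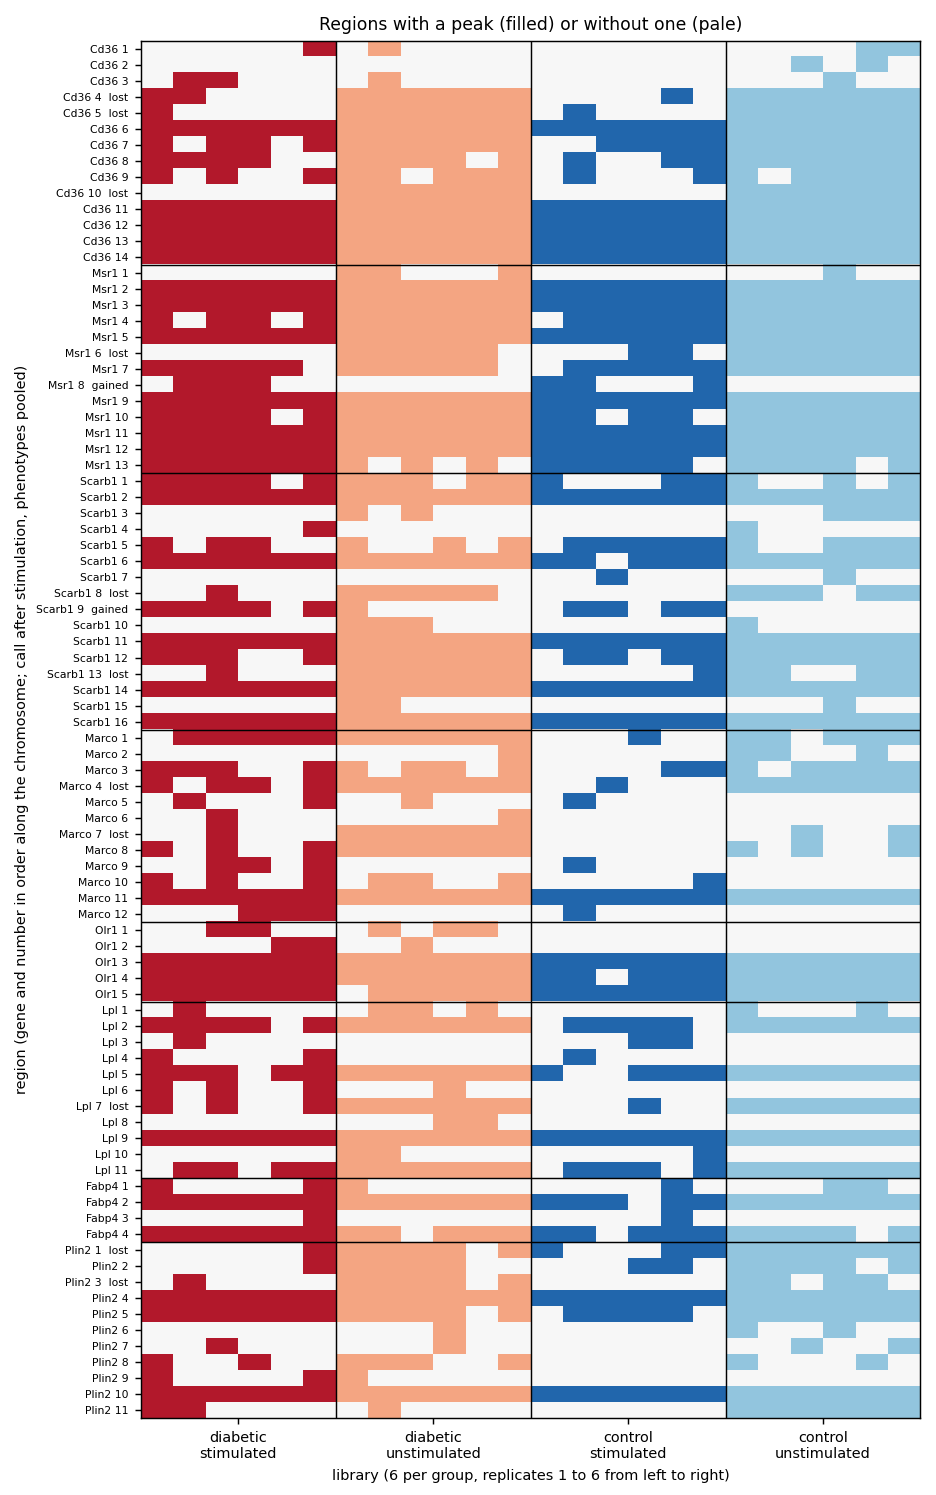
Detection of each of the 86 regions (down, grouped by gene) in each of the 24 libraries (across, 6 per group). A filled cell is a peak, and the words lost or gained mark the 11 and 2 regions called after stimulation with phenotypes pooled.

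The main contrast in these libraries was stimulation. With phenotypes pooled, 11 regions at 6 of the 8 genes were lost after LPS and IFNγ, that is, found in fewer stimulated libraries, and 2 regions at Msr1 and Scarb1 were gained. The losses were 3 at Cd36, 2 each at Scarb1, Marco and Plin2, and 1 each at Msr1 and Lpl. Each region was tested with Fisher's exact test (two-sided, 12 against 12 libraries), with Benjamini-Hochberg adjustment over all 31219 regions whose number of detections could reach an unadjusted p under 0.05, and an adjusted p under 0.05 was called. Among the 29 regions of these genes that could be tested, 37.9% were lost and 6.9% gained, beside 18.9% and 9.19% of all regions tested; 16 of the 29 had an unadjusted p under 0.05, beside 39.5% of all. The other 57 regions could not be tested because they were found in all 24 libraries (20) or in too few or too many (37). A region without a peak was below the authors' calling threshold, which does not show closed chromatin.

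Because stimulated lists were shorter, every list was also cut to the length of the shortest one by its best −log10 q-values. This left 0 gained and 10 lost regions at these genes, of which 7 are among the 11 above; the other 3 are Cd36 region 7, Lpl region 11 and Scarb1 region 12. Over all regions the calls became 3163 gained and 3823 lost, in place of 2868 and 5901, so losses made up 54.7% of calls with equal lists and 67.3% with all peaks. Losses thus remained more frequent than gains at these genes, and the 2 gained regions could not be tested there. A further setting used no filter on rarely found regions or on whether a region could reach an unadjusted p under 0.05. More regions were thus adjusted over, and 6 of the losses and none of the gains passed: Cd36 regions 4, 5 and 10, Msr1 region 6, Scarb1 region 8 and Lpl region 7.

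Cd36 encodes a receptor for oxidised LDL and long-chain fatty acids. Its body (chr5:17781690-17888959) spans 107 kb, and the start of the promoter table lies inside it. It had 14 regions, 13 of them within the gene. Cd36 region 10 (chr5:17849609-17849933), 13913 bp before the start, was found in 0 of 6 diabetic stimulated, 6 of 6 diabetic unstimulated, 0 of 6 control stimulated and 6 of 6 control unstimulated libraries. It separated both states completely, the only region of the 8 genes to do so (adjusted p = 6.17e-05, Fisher's exact test), and its fold was 4.93 to 6.64 where found. The share of all regions that separated the states in this way was not counted.

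Cd36 region 5 (chr5:17835632-17836202), whose summit lies 100 bp before the start, was found in 1 diabetic stimulated, 6 diabetic unstimulated, 1 control stimulated and 6 control unstimulated libraries (adjusted p = 0.00128, Fisher's exact test). Cd36 region 4 (chr5:17821435-17821957), 14282 bp inside the gene, was found in 2, 6, 1 and 6 libraries of the same groups (adjusted p = 0.00388, Fisher's exact test). In both, every unstimulated library had the peak and at most 3 of 12 stimulated libraries did. These 3 regions were also lost with lists of equal length, where regions 5 and 10 were found in 0 stimulated and 12 unstimulated libraries and region 4 in 0 and 11. Cd36 regions 7, 8 and 9, which lie between the start and region 10, were found in 8, 7 and 5 stimulated libraries, against 12, 11 and 10 unstimulated ones. None of them was called with all peaks, where region 7 could not be tested.

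**Figure D2:**
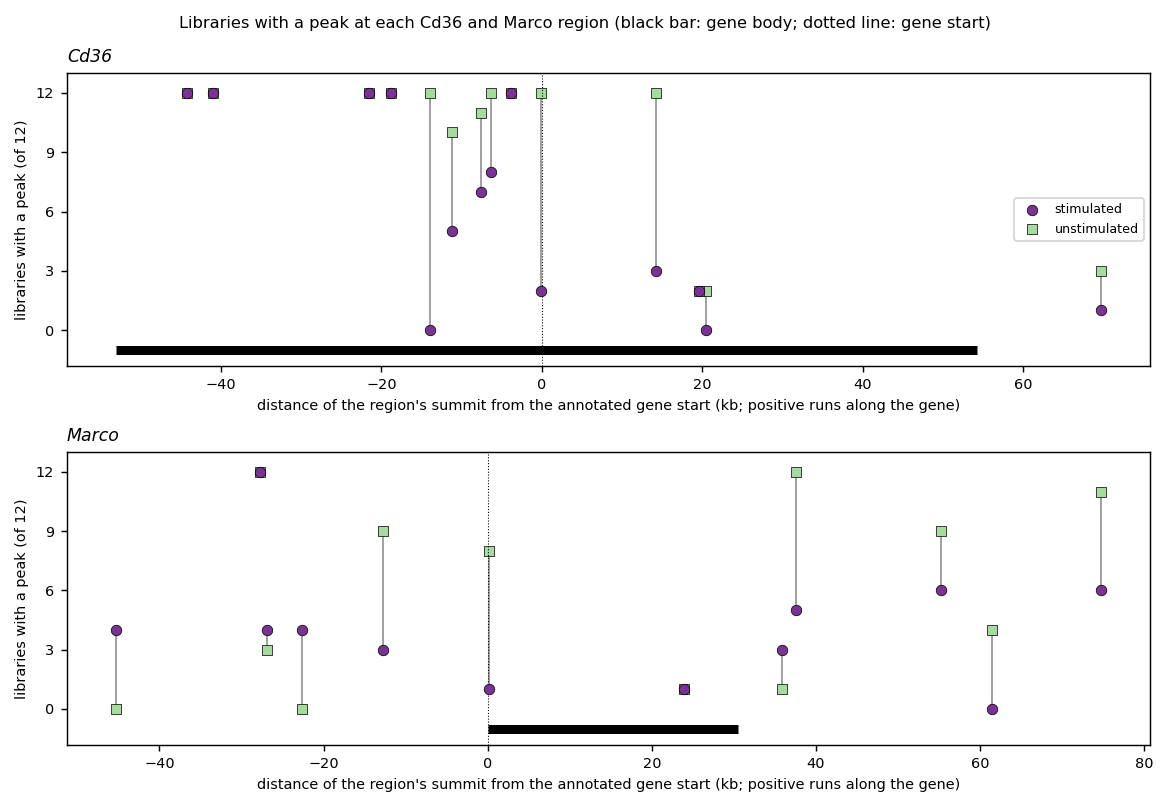
Number of stimulated (circles) and unstimulated (squares) libraries, of 12 each, with a peak at each Cd36 and Marco region, against the summit's distance from the annotated gene start in kb; circles cover squares where the numbers are equal. Cd36 regions 4, 5 and 10 stand at 3, 2 and 0 stimulated libraries, against 12 unstimulated ones each, while 5 other Cd36 regions are at 12 in both states.

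The 5 always-found Cd36 regions lie upstream of that start, 3893 to 44207 bp from it. For such regions the fold of each was turned into a percentile rank among the 22770 regions of the series found in all 24 libraries, so that the same regions were ranked in every library, and ranks were compared with limma with adjustment over all 22770. Cd36 region 6 (chr5:17839511-17839988), 3893 bp before the start, had ranks of 61.1, 84.5 and 96.0 (lowest, median, highest) in 12 stimulated libraries and of 29.9, 56.8 and 78.8 in 12 unstimulated ones. Its rank was 25.5 ± 5.23 percentile points higher after stimulation (SE, limma adjusted p = 0.000576), although the ranges overlapped. Cd36 region 12 (chr5:17857308-17857671) had ranks of 1.58, 5.47 and 24.6 in stimulated and 11.8, 18.1 and 39.6 in unstimulated libraries, a difference of -11.9 ± 3.11 points (SE, limma adjusted p = 0.00493). Always-found regions of Cd36 thus changed rank in both directions. Regions 11, 13 and 14 did not pass, with adjusted p-values of 0.115, 0.192 and 0.954 (limma).

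Msr1 (chr8:39543232-39642750) encodes scavenger receptor A, which binds acetylated and oxidised LDL. It had 13 regions, 6 of them always found, the most of any of the 8 genes. Msr1 region 6 (chr8:39625123-39625531), within the gene, was found in 0 diabetic stimulated, 5 diabetic unstimulated, 2 control stimulated and 6 control unstimulated libraries (adjusted p = 0.00622, Fisher's exact test). Msr1 region 8 (chr8:39641614-39642007), also within the gene, was found in 3, 0, 3 and 0 libraries of these groups and was called gained with an adjusted p of 0.0489 (Fisher's exact test). That call rests on single libraries: it was lost without any one of 14 of the 24. Region 6 did not pass with equal lists (adjusted p = 0.0939) or where peaks had to cover 50% of a region (adjusted p = 0.177, Fisher's exact test).

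Region 9 of Msr1 (chr8:39642593-39642997) spans an end of the gene, its summit 20 bp outside. Its rank was 15.8, 34.2 and 58.6 in stimulated and 37.1, 67.4 and 85.9 in unstimulated libraries. This was a difference of -27.7 ± 6.13 points (SE, limma adjusted p = 0.00123), and the 2 ranges shared the span between 37.1 and 58.6. Msr1 region 3 was 17.7 ± 6.18 points higher (adjusted p = 0.0310), and regions 5 and 11 differed by -15.9 ± 5.71 and -11.1 ± 3.99 points (SE, adjusted p = 0.0350 and 0.0363, limma). These 3 calls were lost without any one of 8, 10 and 13 of the 24 libraries, and regions 3 and 11 did not pass with peak number as a covariate (limma adjusted p = 0.118 and 0.114). Region 2, with the highest median fold of the gene at 12.7, had a median rank of 84.7 in stimulated and 85.2 in unstimulated libraries and was not called (limma adjusted p = 0.780).

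Scarb1 (chr5:125277087-125341094) encodes the HDL receptor SR-BI, which takes up cholesteryl ester and can also carry cholesterol out of the cell. It had the most regions, 16, and moved both ways. Scarb1 region 8 (chr5:125291871-125292253) was found in 1 diabetic stimulated, 5 diabetic unstimulated, 0 control stimulated and 5 control unstimulated libraries (adjusted p = 0.00622, Fisher's exact test). Scarb1 region 13 (chr5:125339114-125339367) was found in 1, 6, 1 and 4 libraries of these groups (adjusted p = 0.0209, and 0.0858 with equal lists, Fisher's exact test). Scarb1 region 9 (chr5:125305351-125305818) went the other way, with 5, 1, 4 and 0 libraries (adjusted p = 0.0184, Fisher's exact test). The 3 lie within the gene, the gained one between the lost ones. None of the 4 always-found Scarb1 regions was called by rank: the adjusted p-values were 0.0712 to 0.981 (limma), and region 16, the strongest, kept a median rank of 94.0 in stimulated and 97.0 in unstimulated libraries.

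Marco (chr1:120474538-120505024) encodes a receptor that binds bacteria and particles. Only 2 of its 12 regions lie within the gene, and 8 are more than 10 kb away from it. Marco region 4 (chr1:120467283-120467774), 7039 bp from the gene, was found in 4 diabetic stimulated, 6 diabetic unstimulated, 1 control stimulated and 6 control unstimulated libraries (adjusted p = 0.0235, Fisher's exact test). Marco region 7 (chr1:120504674-120505064), at the gene start, was found in 1, 6, 0 and 2 libraries of these groups (adjusted p = 0.0437, Fisher's exact test). The peak at the Marco start was therefore present in all 6 unstimulated diabetic libraries and in 3 of the other 18. Region 4 was also lost with equal lists, whereas region 7 was found too rarely there to be tested. Neither passed where peaks had to cover 50% of a region (adjusted p = 0.0555 and 0.177, Fisher's exact test). Marco region 11, the always-found region 27696 bp from the gene, ranked at a median of 45.5 in stimulated and 20.5 in unstimulated libraries without passing (limma adjusted p = 0.0763).

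Olr1 (chr6:129479150-129507350) encodes LOX-1, an endothelial and macrophage receptor for oxidised LDL. It had 5 regions, of which 1 could be tested for gain or loss and was not called. Olr1 region 5 (chr6:129507008-129507658), at the gene start, was found in 6, 5, 6 and 6 libraries of the diabetic stimulated, diabetic unstimulated, control stimulated and control unstimulated groups. Olr1 region 3 (chr6:129494809-129495335), within the gene, had ranks of 10.2, 36.0 and 66.6 in stimulated and 42.9, 60.7 and 83.5 in unstimulated libraries. The difference was -23.9 ± 6.37 points (SE, limma adjusted p = 0.00567), with overlapping ranges.

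Lpl (chr8:68880555-68906932) encodes lipoprotein lipase, which frees fatty acids from triglyceride-rich lipoproteins. Lpl region 7 (chr8:68914505-68914881), 7755 bp from the gene, was found in 3 diabetic stimulated, 6 diabetic unstimulated, 1 control stimulated and 6 control unstimulated libraries (adjusted p = 0.0101, Fisher's exact test). With equal lists it remained in 1 of the stimulated and in all 12 unstimulated libraries (adjusted p = 0.000241, Fisher's exact test). The always-found Lpl region 9 (chr8:68926261-68926971), 19712 bp away on the same side, went up instead. Its ranks were 17.2, 54.0 and 66.1 in stimulated and 2.21, 15 and 59.3 in unstimulated libraries, a difference of 27.0 ± 6.14 points (SE, limma adjusted p = 0.00154). Lpl region 2, which spans an end of the gene, was found in 9 stimulated and 12 unstimulated libraries and could not be tested.

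Fabp4 (chr3:10204342-10208616) encodes an intracellular fatty acid carrier, abundant in adipocytes and lipid-laden macrophages. It had 4 regions, of which region 2, which spans an end of the gene with its summit 91 bp outside, was found in 11 stimulated and 12 unstimulated libraries. The 1 region that could be tested, within the gene, was found in 3 libraries of either state and was not called.

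Plin2 (chr4:86626910-86670217) encodes perilipin 2, the coat protein of macrophage lipid droplets. The region at its start (Plin2 region 4, chr4:86669776-86670261) was found in all 24 libraries and had a median rank of 39.1 in stimulated and 40.6 in unstimulated libraries (limma adjusted p = 0.945). Plin2 region 3 (chr4:86632509-86632764), within the gene, was found in 1 diabetic stimulated, 5 diabetic unstimulated, 0 control stimulated and 4 control unstimulated libraries (adjusted p = 0.0184, Fisher's exact test). Plin2 region 1 (chr4:86620539-86620891), 6244 bp from the gene, was found in 1, 5, 3 and 6 libraries of these groups (adjusted p = 0.0437, and 0.0939 with equal lists, Fisher's exact test). Plin2 region 10, 20169 bp away and always found, ranked 36.8, 67.7 and 91.6 in stimulated and 69.0, 82.7 and 95.3 in unstimulated libraries, a difference of -16.4 ± 4.64 points (SE, limma adjusted p = 0.00875). The start of Plin2 thus kept its peak in every library while regions on both sides of it changed.

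Over the 20 always-found regions, 3 were higher (15%) and 6 lower (30%) by rank after stimulation, beside 14.8% and 15.1% of all 22770; 12 had an unadjusted p under 0.05 (limma), beside 41.1% of all. On the log2 scale of folds the calls were 4 higher and 5 lower. The median difference was -1.11 points for the 20 regions and 0.55 points over all. The share of higher ranks is near the background, so it says nothing about these genes in particular.

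**Figure D3:**
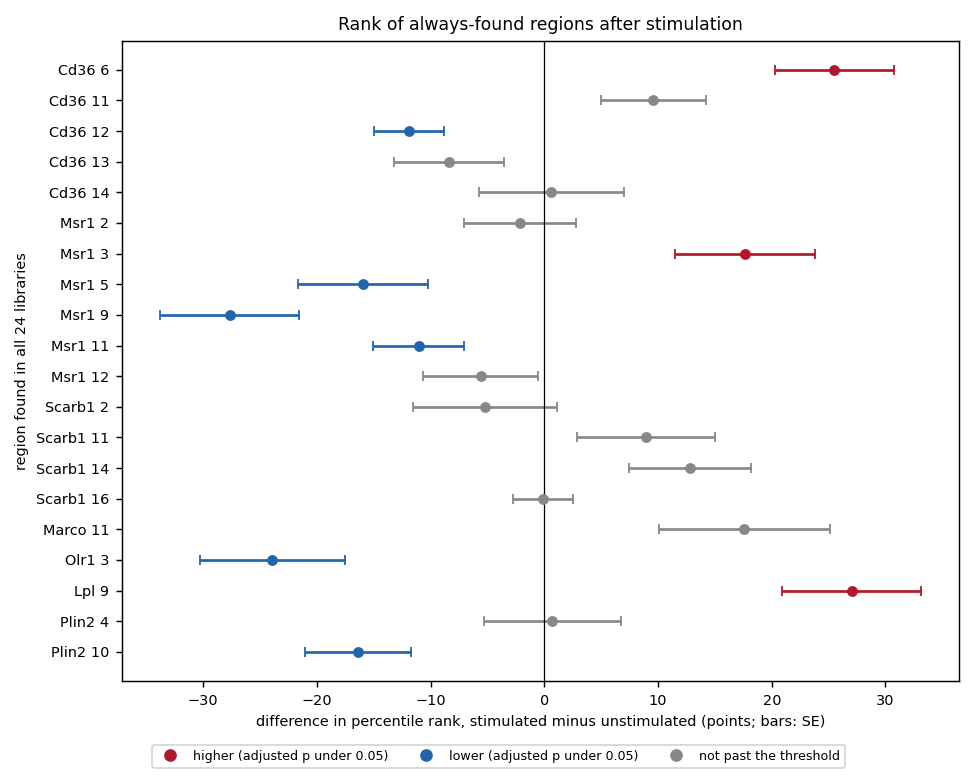
Difference in percentile rank (stimulated minus unstimulated, phenotypes pooled; points with SE) of the 20 always-found regions, among the 22770 regions found in all 24 libraries. Higher ranks at Cd36 6, Lpl 9 and Msr1 3 stand beside lower ones at Msr1 9, Olr1 3 and 4 others.

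Summed per gene, the number of peaks gave 1 value per library. Cd36 had 5, 8.5 and 10 peaks (lowest, median, highest) in diabetic stimulated, 10, 11 and 13 in diabetic unstimulated, 5, 7 and 8 in control stimulated and 10, 12 and 13 in control unstimulated libraries. Stimulated and unstimulated libraries met at 10 peaks. The means were 7.42 ± 1.62 in 12 stimulated and 11.3 ± 1.07 in 12 unstimulated libraries, a difference of -3.92 peaks (SD, adjusted p = 0.00252, two-sided exact permutation test within phenotypes, adjusted over 16844 genes). Plin2 averaged 4.25 ± 1.29 peaks in stimulated and 7.08 ± 1.83 in unstimulated libraries, a difference of -2.83 (SD, n = 12 each, adjusted p = 0.0198, same exact permutation test). Its groups overlapped: stimulated libraries held up to 6 Plin2 peaks, and 2 diabetic unstimulated libraries held 2 and 6. With same-numbered libraries treated as pairs, neither Cd36 nor Plin2 passed the adjustment (exact permutation of signs within pairs).

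With libraries treated as independent, these 2 of the 8 genes fell and none rose, beside 6.52% of all genes that fell and 1.82% that rose. At an unadjusted p under 0.05, 5 of the 8 differed, beside 19.9% of all genes (exact permutation test). Scaled to peaks per 1000 of the list, the same 2 genes fell, while the calls over all genes turned to 1290 higher and 924 lower in place of 306 and 1099, so that falls made up 41.7% of calls in place of 78.2%. With lists of equal length, 3 of the 8 genes fell, among 663 genes higher and 696 lower (51.2% falls). The remaining genes did not pass. Marco averaged 4.08 peaks in stimulated and 6.08 in unstimulated libraries (adjusted p = 0.0950), Lpl 4.83 and 6.5 (adjusted p = 0.112), Scarb1 8.33 and 10.2 (adjusted p = 0.212) and Msr1 10.6 and 11.2 (adjusted p = 0.620, exact permutation tests). Olr1 averaged 3.25 peaks in both states, and Fabp4 2.25 and 2.17.

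**Figure D4:**
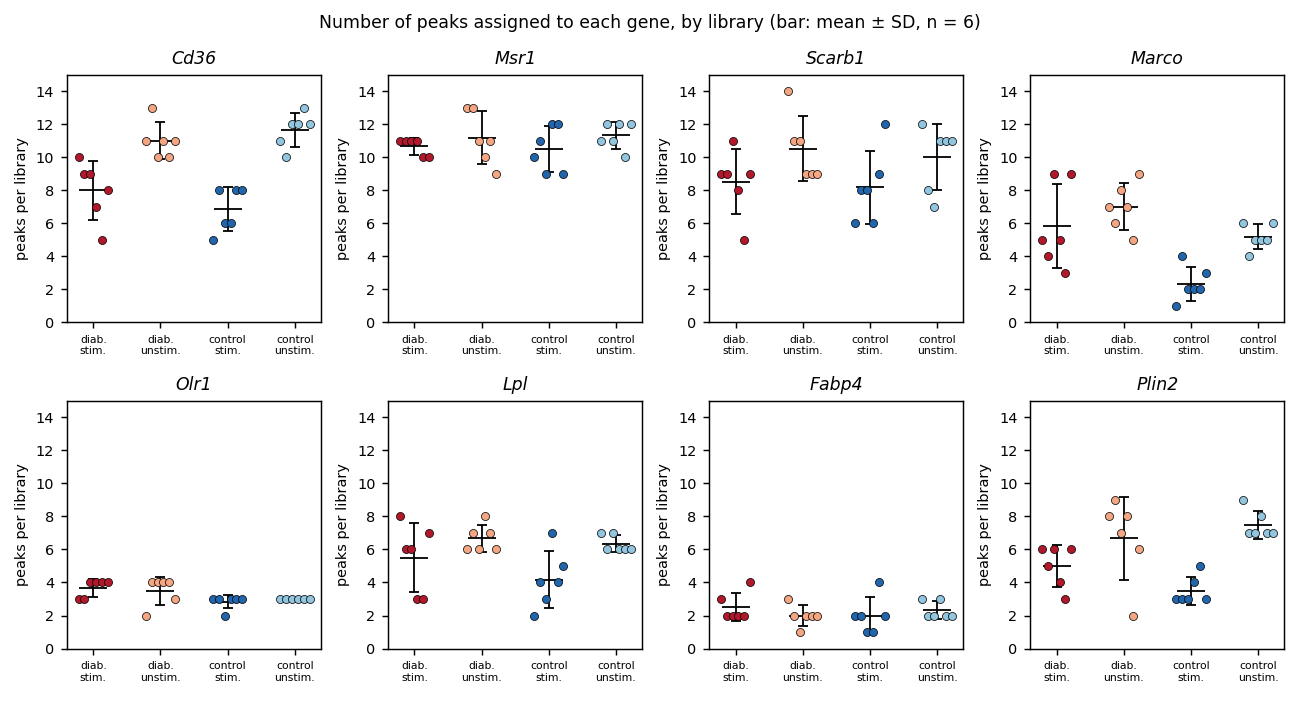
Number of peaks assigned to each gene in every library, by group (points: libraries; bars: mean ± SD, n = 6). Cd36 has 5 to 10 peaks in stimulated libraries and 10 to 13 in unstimulated ones, and Marco 3 to 9 in diabetic stimulated, against 1 to 4 in control stimulated libraries.

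Ordered by mean peak number over unstimulated libraries, Cd36 (11.3) and Msr1 (11.2) were followed by Scarb1 (10.2), Plin2 (7.08), Lpl (6.5), Marco (6.08), Olr1 (3.25) and Fabp4 (2.17). Every step from a gene to the next except those from Scarb1 to Plin2, Marco to Olr1 and Olr1 to Fabp4 was smaller than the larger of both SDs. The counts are not per length, and the genes span 4.28 kb (Fabp4) to 107 kb (Cd36), so this is not an order of accessibility. In stimulated libraries Cd36 (7.42) stood behind Msr1 (10.6) and Scarb1 (8.33).

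Within phenotypes the same losses were tested with 6 against 6 libraries. In diabetic macrophages 1 of 14 tested regions was lost, Cd36 region 10 (adjusted p = 0.0243, and 0.0667 where peaks had to cover 50% of a region, Fisher's exact test), and none gained, beside 3.44% and 5.47% of all regions tested. An unadjusted p under 0.05 was seen for 5 of the 14 regions, beside 27.1% of all. Besides Cd36 region 10 these were Cd36 region 5, Msr1 region 6, Scarb1 region 13 and Marco region 7. Each of them narrowly missed the threshold (adjusted p = 0.0559, Fisher's exact test). In control macrophages 7 of 13 tested regions were lost and none gained, beside 27.5% and 8.41% of all. The same 7 were those with an unadjusted p under 0.05, beside 35.9% of all. They were Cd36 regions 4, 5 and 10, Scarb1 region 8, Marco region 4, Lpl region 7 and Plin2 region 11 (adjusted p = 0.0173 for Cd36 region 10 and Plin2 region 11, and 0.0422 for the other 5, Fisher's exact test). Cd36 region 5 had the same library counts in both phenotypes (unadjusted p = 0.0152 in each, Fisher's exact test), so only the adjustment set them apart. The control calls depend on single libraries. Leaving out control stimulated replicate 1, 2, 3 or 4 or control unstimulated replicate 1, 3, 4, 5 or 6 gave 2 to 3 lost regions, and leaving out another gave 7 to 8, since an adjusted p of 0.0422 passed 0.05 without any one of 8 or 9 of the 12 libraries, while Cd36 region 10 and Plin2 region 11 kept their calls in every such fit. With peaks covering 50% of a region, Lpl region 7 did not pass in control macrophages (adjusted p = 0.197, Fisher's exact test). With no filter on rarely found or untestable regions, and so more regions adjusted over, none of the 8 genes' regions was called in either phenotype (adjusted p = 0.146 and above, Fisher's exact test).

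The count of 1 against 7 does not show a weaker response in diabetic macrophages. With lists of equal length, 6 regions were lost in each phenotype: Cd36 4, 5 and 10 and Lpl 7 in both, Plin2 3 and Scarb1 13 in diabetic, and Marco 4 and Plin2 11 in control macrophages, where Scarb1 region 5 was also gained. Over all regions, losses made up 38.6% of calls in diabetic macrophages with all peaks and 45.1% with equal lists, and in control macrophages 76.6% and 54.7%. Zelen's exact test of the interaction itself gave 0 calls among 6 tested regions of these genes and 0% among all 9353, with 1 region and 2.45% of all at an unadjusted p under 0.05. Of the regions lost within a phenotype with all peaks, only Plin2 region 11 could be tested, and it was that 1 region. The test thus cannot decide whether the other losses differed between phenotypes.

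By rank, Cd36 region 6 was the 1 always-found region called in diabetic macrophages, 26.2 ± 7.40 points higher after stimulation (SE, limma adjusted p = 0.0218), beside 4.5% of all regions higher and 5.11% lower. At an unadjusted p under 0.05 there were 5 (limma), beside 23.7% of all. It was 24.8 ± 7.40 points higher in control macrophages (SE, limma adjusted p = 0.0195). The diabetic call was lost without diabetic stimulated replicate 6 or diabetic unstimulated replicate 2 or 5 (limma adjusted p up to 0.0592), and the control call without control unstimulated replicate 5 (0.0551). Control macrophages had 2 regions higher, Cd36 6 and Lpl 9, and 4 lower, Msr1 9, Msr1 11, Plin2 10 and Cd36 12, beside 9.48% and 9.84% of all; 10 of the 20 had an unadjusted p under 0.05 (limma), beside 34% of all. Folds on the log2 scale gave 4 higher and 3 lower in control macrophages. With peak number as a covariate the control calls of Cd36 6, Msr1 9 and Msr1 11 did not pass (limma adjusted p = 0.159, 0.0642 and 0.131), nor did Cd36 12 on the log2 scale (0.114). The calls of Plin2 10, Msr1 11 and Cd36 12 were also lost without 1, any one of 5 and any one of 10 of the 12 control libraries, for Plin2 10 control stimulated replicate 6 (limma adjusted p = 0.0572). Lpl region 9 was 39.0 ± 8.68 points higher in control (adjusted p = 0.00261) and 15 ± 8.68 points higher in diabetic macrophages (adjusted p = 0.303, SE, limma). The interaction gave no call by rank among the 20 regions, with 0 of them and 6.74% of all regions at an unadjusted p under 0.05, so that difference was not established. For peak number no gene of the series passed within a phenotype. The smallest unadjusted p of any gene was 0.00216 in each phenotype (exact permutation test). After adjustment this became 0.0985 in control and 0.262 in diabetic macrophages. In control macrophages Cd36 (5 to 8 peaks stimulated, 10 to 13 unstimulated) and Plin2 (3 to 5 and 7 to 9) had this smallest p. Their groups did not overlap, so no lower p was possible, and the adjusted test cannot decide whether they changed there. Scaled to peaks per 1000 of the list, 2349 genes were higher and 378 lower in control macrophages, where 3 of the 8 genes were lower. At an unadjusted p under 0.05 (exact permutation test), Cd36 differed in diabetic macrophages, 1 of 8 genes beside 7.19% of all. In control macrophages Cd36, Marco, Lpl and Plin2 did, 4 of 8 beside 13.3% of all.

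The other question was whether macrophages of diabetic mice differ from those of controls. No region, rank or peak number of these 8 genes passed the adjustment, at rest or after stimulation. At rest, 5 regions could be tested and 1 had an unadjusted p under 0.05, beside 1.56% of all 8788. After stimulation, 6 could be tested and 0 did, beside 3.02% of all 9681. By rank, 0 of the 20 regions had an unadjusted p under 0.05 in either state (limma), beside 4.65% of all regions at rest and 9.39% after stimulation. After adjustment, 0.00439% of all regions were called lower at rest, and 0.0351% higher and 0.0132% lower after stimulation. With 6 against 6 libraries and adjustment over all regions tested, a difference may have gone undetected.

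Marco came nearest to a difference in peak number. It had 3, 5 and 9 peaks (lowest, median, highest) in diabetic stimulated libraries and 1, 2 and 4 in control stimulated libraries. The means were 5.83 ± 2.56 and 2.33 ± 1.03 (SD, n = 6 each; unadjusted p = 0.0108, adjusted p = 1, two-sided exact permutation test). At rest it had 5, 7 and 9 peaks in diabetic and 4, 5 and 6 in control libraries, with means of 7 ± 1.41 and 5.17 ± 0.753 (SD, n = 6 each; unadjusted p = 0.0368, adjusted p = 1, exact permutation test). The groups overlapped in both states, but the diabetic mean was higher in each. The lists of the diabetic stimulated group were also longer, 53703 peaks on average against 47268 in control stimulated libraries, and the part of this in the Marco values was not tested. At rest the lists did not differ in that way, with 55522 and 55990 peaks.

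The Marco regions that carried this were several. Region 7, at the start, was found in 6 diabetic and 2 control unstimulated libraries (unadjusted p = 0.0606, Fisher's exact test). Region 8, 12732 bp before the start, was found in 3 diabetic stimulated and 0 control stimulated libraries, and in 6 diabetic and 3 control unstimulated ones. Region 1, 44232 bp from the gene, was found in 5 diabetic and 1 control stimulated libraries (unadjusted p = 0.0801, Fisher's exact test). Not every region ran this way: region 2 was found in 1 diabetic and 3 control unstimulated libraries.

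Olr1 was the other gene with an unadjusted p under 0.05 after stimulation, with 3.67 ± 0.516 peaks in diabetic and 2.83 ± 0.408 in control libraries (SD, n = 6 each; unadjusted p = 0.0455, adjusted p = 1, exact permutation test). These 2 of 8 genes stand beside 3.46% of all genes after stimulation, and Marco, 1 of 8 at rest, beside 1.04%. Regions 1 and 2 of Olr1 were found in 5 and 3 diabetic libraries and in 0 control libraries over both states. Region 1 lies 2195 bp outside Olr1 and 4170 bp from Clec7a. Where found, the median folds of regions 1 and 2 were only 4.25 and 4.40. Within each state both were found too rarely to be tested, and phenotypes were not compared over both states. The share of all regions that show such a split was not counted.

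Plin2 region 11 (chr4:86696882-86697160), 26808 bp from the gene, was the region with the unadjusted p under 0.05 at rest. It was found in 2 diabetic stimulated, 1 diabetic unstimulated, 0 control stimulated and 6 control unstimulated libraries. The difference between diabetic and control libraries at rest did not pass the adjustment (unadjusted p = 0.0152, adjusted p = 0.972, Fisher's exact test). It was lost after stimulation in control macrophages (adjusted p = 0.0173) and could not be tested in diabetic ones (Fisher's exact test). The interaction had an unadjusted p of 0.0115 and an adjusted p of 1 (Zelen's exact test).

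**Figure D5:**
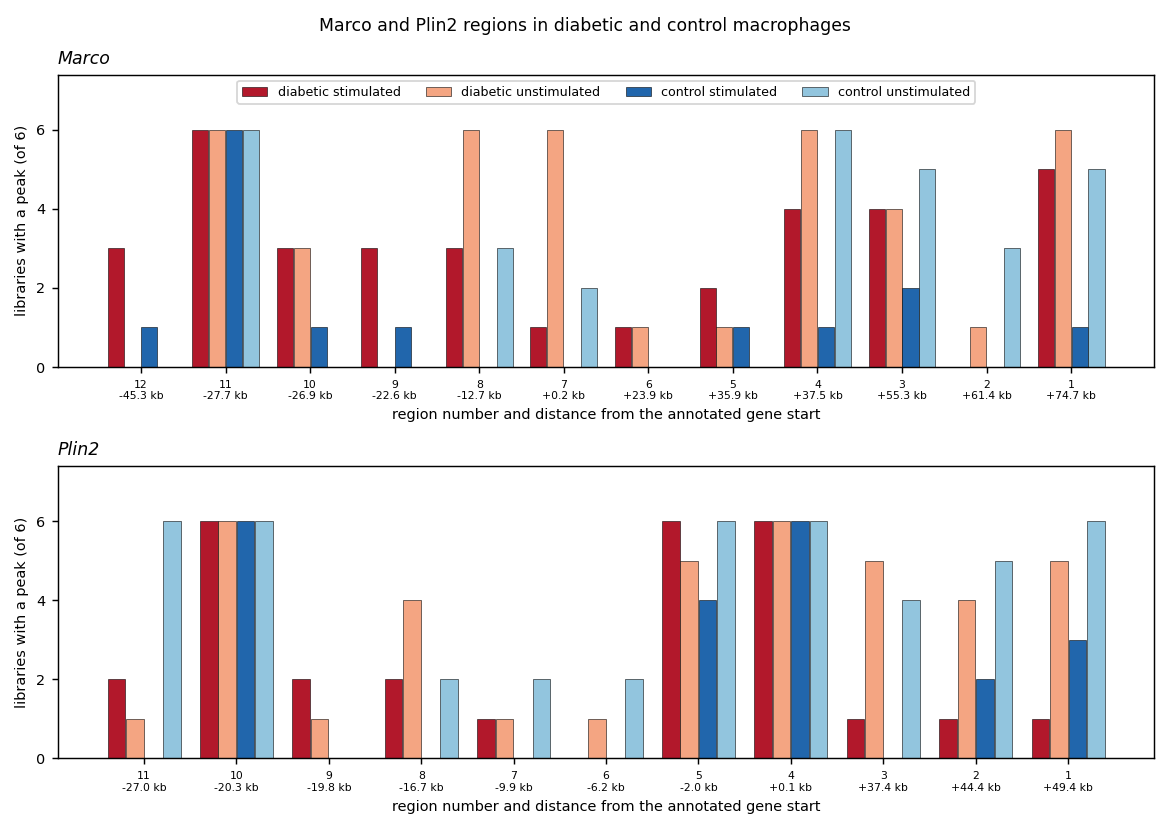
Number of libraries of 6 with a peak at each Marco and Plin2 region, by group, in order of distance from the annotated gene start in kb. Marco region 7 reaches 6 in diabetic unstimulated libraries and at most 2 in the other groups, and Plin2 region 11 reaches 6 in control unstimulated and at most 2 in the others.

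A wider list of 53 other genes of lipid uptake and storage was read in the same way. Of these, 50 had regions, and 118 regions could be tested with phenotypes pooled: 20 were lost at 12 genes (16.9%) and 8 gained at 5 genes (6.78%). Both shares are close to or below those of all regions, 18.9% and 9.19%, and 1 gene, Cav1, had both.

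The losses with the smallest p were at Scarb2, which encodes the lysosomal membrane protein LIMP-2. Scarb2 lost 4 regions, the clearest present in 1 of the stimulated and 12 of the unstimulated libraries (chr5:92528567-92528879, 23072 bp from the gene, adjusted p = 0.000303, Fisher's exact test). Soat1, which encodes the enzyme that esterifies cholesterol for storage, lost a region that 0 stimulated and 10 unstimulated libraries held (adjusted p = 0.00128, Fisher's exact test). Acsl3, a long-chain acyl-CoA synthetase gene active in lipid droplet formation, lost 3, the clearest in 0 and 9 libraries (adjusted p = 0.00388, Fisher's exact test). Lipg, the endothelial lipase gene, instead gained 3, the clearest held by 9 stimulated and 0 unstimulated libraries (adjusted p = 0.00388, Fisher's exact test). Pparg, which encodes the nuclear receptor named above, lost 3 regions. One was held by 0 stimulated and 7 unstimulated libraries (adjusted p = 0.0235, Fisher's exact test). The others were held by 6 and 12 and by 0 and 6 libraries (adjusted p = 0.0489 each, Fisher's exact test). These last calls are as near the threshold as that of Msr1 region 8. How far the Pparg calls depend on single libraries or on the filter was not tested. In diabetic macrophages 0 of 43 tested regions of this list were gained and 1 lost (2.33%, beside 3.44% of all regions tested), and in control macrophages 1 of 44 was gained and 11 lost (25%, beside 27.5%).

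For each of the 8 genes, the genes whose peak numbers ran most like its own over the 24 libraries were looked up by Pearson's r. These values describe the libraries, which share stimulation state and list length, and carry no test. Cd36 was most like Kcnk13 (r = 0.907), Itga4 (0.893) and Tmem260 (0.882), and Plin2 most like Mpp7 (0.892), Tbc1d4 (0.877) and Ccdc158 (0.877). Lpl was most like Copg1 and Zc3h18 (0.889 each) and Smdt1 (0.834), Marco like Prkce (0.840), Kcnq3 (0.832) and Calr4 (0.828), and Scarb1 like Gtsf1 (0.812), Spire1 (0.797) and Dtwd2 (0.796). The genes with few or steady peaks had lower values. Fabp4 reached 0.760 with Grhl2, 0.723 with Ces1a and 0.708 with Hypk, Msr1 reached 0.741 with Nfia, 0.707 with Tshz2 and 0.700 with Gm52523, and Olr1 reached 0.711 with Sec14l5, 0.656 with Clec10a and 0.651 with Mt4.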

How the data were processed

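The authors deposited 1 narrowPeak list per library, on mm10, each peak with a score, a fold enrichment (a ratio), a −log10 p-value, a −log10 q-value and a summit offset. For 99.99% of peaks the deposited score equalled 10 times the −log10 q-value without its decimals, and the smallest deposited −log10 q-value was 1.30. The submitters' processing notes list Bowtie2 2.2.6, DiffBind 2.4.8, edgeR, FastQC 0.11.3, MACS2 2.1.1 and Trim Galore. The sources used here do not give their roles or settings, any shift of reads for the Tn5 offset, or the number of reads. Per the labels' protocols, nuclei of 50000 cells were transposed, fragments above 1200 bp were excluded and single reads of 50 bp were sequenced. The labels name no batch.

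From these lists, peaks of all 24 libraries that shared 1 bp or more were joined into regions, and a region counted as found in a library that had a peak there. Regions of a single library were dropped. Regions and peaks went to the nearest protein-coding gene body of RefSeq GRCm38.p6, at most 50 kb from the summit. That table holds no exons or strand, and strand came from the promoter table for 4 genes. Detection was compared with Fisher's exact test, the interaction with Zelen's exact test, peak numbers per gene with exact permutation tests (two-sided, 853776 label orders within phenotypes, 924 for 6 against 6) and ranks with limma 3.58.1, all adjusted with the Benjamini-Hochberg method over all features of the series at 0.05. Python 3.11.15, scipy 1.17.1 and R 4.3.3 were used, and the tests were tested on simulated data. The alternatives were lists of equal length, a −log10 q-value of at least 5, a cover of 50%, no filter, peaks per 1000, other rank scales, peak number as a covariate, a replicate block and leaving out each library.

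The 8 genes, the list of other lipid genes and the markers were chosen with earlier results of these data known. The text names all 8 genes, every called region, the strongest always-found region of each gene and the region at its start where strand is known, up to 6 leading regions of other lipid genes, and for each gene the 3 genes most like it. Pparg was named beyond this rule after its values were seen. Of the motifs searched, 1 is not reported here.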

Additional observations from a re-analysis of the deposited data

Results flagged for a closer look

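In 128 sets of 6 libraries (peak numbers per gene, ranks of always-found regions and values of the lists), 9 held a library that stood apart from the other 5 by Dixon's criterion. Chance flags about 1 in 20 groups of continuous, normally distributed values. Peak numbers per gene are small whole numbers with ties, so that rate does not hold for them. For peak numbers, 1 diabetic unstimulated library had 13 Cd36 peaks, against 10 to 11 in the others of its group. A control stimulated library had 2 Olr1 peaks, where the others had 3, and another had 4 Fabp4 peaks, where the others had 1 to 2. Control stimulated replicate 6 had ranks of 65.1 at Cd36 region 6 and 35.4 at Msr1 region 2, where the others of the group had 84.8 to 96.0 and 75.6 to 95.0. Scarb1 region 16 ranked at 75.6 in a diabetic unstimulated library (others 94.3 to 99.8) and at 83.5 in a control stimulated one (others 92.5 to 97.8). In control unstimulated libraries, Cd36 region 14 ranked at 83.8 in replicate 2 (others 53.9 to 64.4) and Plin2 region 4 at 12.7 in replicate 1 (others 38.9 to 54.3).

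Plin2 region 11 stood out because its response differed between phenotypes in the unadjusted interaction test (p = 0.0115, Zelen's exact test), which did not survive adjustment over all regions (adjusted p = 1).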

How the results depend on the processing

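No single region or gene named changed direction, although the balance of calls over all genes did with peaks per 1000, and that of control ranks at the 8 genes with log2 folds. Named regions and genes kept their side of the threshold in 125 of 162 alternative values and in 650 of 756 with a library left out. With lists of equal length, pooled gains at the 8 genes went to 0 and losses over all regions to 3823; in diabetic macrophages the calls became 1575 gained and 1295 lost over all regions and 6 lost at the 8 genes, and in control macrophages 1 gained at the 8 genes and 1769 lost over all. With a −log10 q-value of at least 5, pooled calls at the 8 genes were 0 gained and 18 lost, beside 1908 gained and 6111 lost over all (76.2% losses). In diabetic macrophages 4 were lost at the 8 genes, beside 373 gained and 380 lost over all (50.5% losses, against 38.6% with all peaks). In control macrophages 11 were lost at the 8 genes, beside 636 gained and 3506 lost over all (84.6% losses). A cover of 50% gave 1 pooled gain at the 8 genes (2084 over all), 2 diabetic losses (388 over all) and 1 control gain (876 over all). With no filter, and so more regions adjusted over, pooled calls were 0 gained and 6 lost at the 8 genes, and 1581 and 2570 over all, with 0 calls within either phenotype.

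Same-numbered libraries correlated at -0.0541 to 0.0159 in their deviations, and those of different numbers at -0.0547 to 0.0515. Of the same-numbered pairs, 3 of 24 correlated best with their own number. Such correlations cannot exclude that a number marks 1 mouse. With the replicate block, pooled gains were 1, control losses 2 (441 gained and 1078 lost over all), peak numbers gave 0 genes higher or lower (Cd36 adjusted p = 0.0514, Plin2 0.0692, exact permutation of signs within pairs), and 0 regions ranked lower in diabetic than control unstimulated libraries.

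Peaks per 1000 gave 1290 genes higher and 924 lower in the pooled comparison and, in control macrophages, 2349 higher and 378 lower, 3 of them among the 8. Equal lists gave 663 genes higher and 696 lower. For ranks, peak number as a covariate gave 1983 regions higher pooled, and in control macrophages 768 higher and 916 lower (1 and 2 at the 8 genes). The log2 scale gave 4 higher and 3 lower there, against 2 and 4. The few rank calls between phenotypes, 1 at rest and 8 and 3 after stimulation over all regions, went to 0 with normal scores or log2 folds, and to 0 at rest and 1 higher with the covariate.

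Leaving out 1 library gave 1 to 2 pooled gains, 1 to 3 diabetic losses (more than 1 without diabetic stimulated replicate 1 or 3 or diabetic unstimulated replicate 6; 666 to 1008 gained over all, highest without diabetic stimulated replicate 5) and 2 to 8 control losses (1149 to 4447 lost and 467 to 1178 gained over all). By rank it gave 1 to 4 control regions lower, 0 to 1 diabetic regions higher and 0 to 1 lower at the 8 genes. Over all regions it gave 2 to 37 higher and 1 to 19 lower between phenotypes after stimulation, 0 to 1 lower at rest, and 0 to 1 higher in the interaction. The cause of these changes was not tested. Presence or absence of a peak, an uncertain stimulation time, unknown read depth and assignment by nearest gene limit all of these results.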
